A study of Sus scrofa with 6 samples.

Results

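The microRNAs miR-10 and miR-196, whose genes lie inside the HOX clusters, were described in tooth germs of miniature pig embryos. The members were taken by name, as every experimental probe named for miR-10 or miR-196, in any form, with predicted candidates of the PC class left out. This gave 5 of 742 probes. Of these, 4 are mature pig miRNA probes (ssc-miR-10a, ssc-miR-10b, ssc-miR-196a and ssc-miR-196b), out of 188 mature pig probes on the array. The last, miR-10a-5p-40349, is a custom probe for a longer form of miR-10a. Germs of 4 deciduous tooth types, the incisor, canine, premolar and molar, had been collected at embryonic days 40, 50 and 60. All came from untreated miniature pigs as far as the labels say, and whether germs of several embryos were pooled is not stated. Each of the 12 conditions is represented by 1 RNA, and every array, of which there are 6, took up 2 of the RNAs in different colours and held each probe in 4 spots. Incisor and canine germs are called anterior here, and premolar and molar germs posterior.

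HOX genes are transcription factors that give segments of the embryo their position along the head to tail axis, and the miRNAs between them are transcribed from the same clusters. In zebrafish miR-10 represses Hox genes of the anterior paralog groups, and in mouse miR-196 directs the cleavage of the Hoxb8 transcript. Teeth form from oral epithelium and from cranial neural crest mesenchyme of the first pharyngeal arch, a region known for the absence of HOX expression in mouse and chick. In the RefSeq annotation of the pig assembly Sscrofa11.1, the nearest listed HOX genes around MIR10A are HOXB3 and HOXB5, and those around MIR10B are HOXD8 and HOXD3. MIR196A-1 is listed between HOXB8 and HOXB13, and MIR196A-2 between HOXC10 and HOXC9.

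The deposited target sequences show how close the members are to each other and to relatives outside the HOX clusters. They are written 5′ to 3′ with the seed, bases 2 to 8, in capitals.
ssc-miR-10a: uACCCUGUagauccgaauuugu
ssc-miR-10b: uACCCUGUagaaccgaauuugu
miR-10a-5p-40349: uACCCUGUagauccgaauuuguga
ssc-miR-196a: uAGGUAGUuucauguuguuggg
ssc-miR-196b: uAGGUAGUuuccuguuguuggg
ssc-miR-100: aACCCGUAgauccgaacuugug
ssc-let-7a: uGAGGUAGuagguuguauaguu
The 3 miR-10 probes share the seed ACCCUGU and the 2 miR-196 probes the seed AGGUAGU. Counted from the 5′ end of miR-10a, the only difference to miR-10b is U12A, and the only difference from miR-196a to miR-196b is A12C. The custom probe holds all 22 bases of miR-10a and 2 more at the 3′ end. The longest run that miR-10a has in common with miR-100, a sequence relative outside the HOX clusters, is the 11 bases guagauccgaa, and 4 single-base changes, gaps included, turn one whole sequence into the other. The run common to miR-196a and let-7a is the 7 bases agguagu, which sit 1 position apart in the 2 miRNAs, and 9 such changes separate the whole sequences. Cross-hybridisation between relatives was not tested.

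The probes stayed at or near the level of the blank spots in most RNAs. Each level was set against a surface fitted through the 716 blank spots of its array and channel, and counted as above background past 3 SD, where the SD is that of the blanks as estimated by their median absolute deviation. Of the 60 values (5 probes in 12 RNAs), 19 were above background and 26 lay below the surface. ssc-miR-10a was above background in 4 RNAs, the day-40 incisor, canine and molar and the day-50 premolar. ssc-miR-10b was above background in the same 4 and in the day-50 canine. ssc-miR-196a and ssc-miR-196b were each above background in 4 RNAs, the day-40 incisor, the day-40 and day-50 canine and the day-50 premolar. miR-10a-5p-40349 was above background in 2, the day-40 canine and the day-50 premolar. Faint readings of this kind were common: 73 of the 188 mature pig probes were above background in 5 or fewer RNAs, and 78 in all 12. In bulk germs, a low level of an RNA and a small share of cells that hold it cannot be told apart.

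Most readings above background came from 1 of the 2 density columns of the scan. Each array gives a left and a right column, 1 for each RNA. In the left columns 17 of 30 member values (56.7%) were above background, and in the right columns 2 of 30 (6.67%). Over all 742 probes these shares were 76.2% and 43.8%. In the left columns of 5 arrays, which hold the day-40 and day-60 incisor, the day-40 and day-50 canine and the day-50 premolar, not a single one of the 742 probes lay below the blank surface, and the lowest stood 0.394 SD above it. In the right columns of the same arrays between 18.6% and 29.8% of the mature probes lay below it. In those 5 RNAs, from which 17 of the 19 member values above background came, probes as a class thus read above empty spots. Whether this offset belongs to the dye, the scan or the RNA was not tested.

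**Figure D1:**
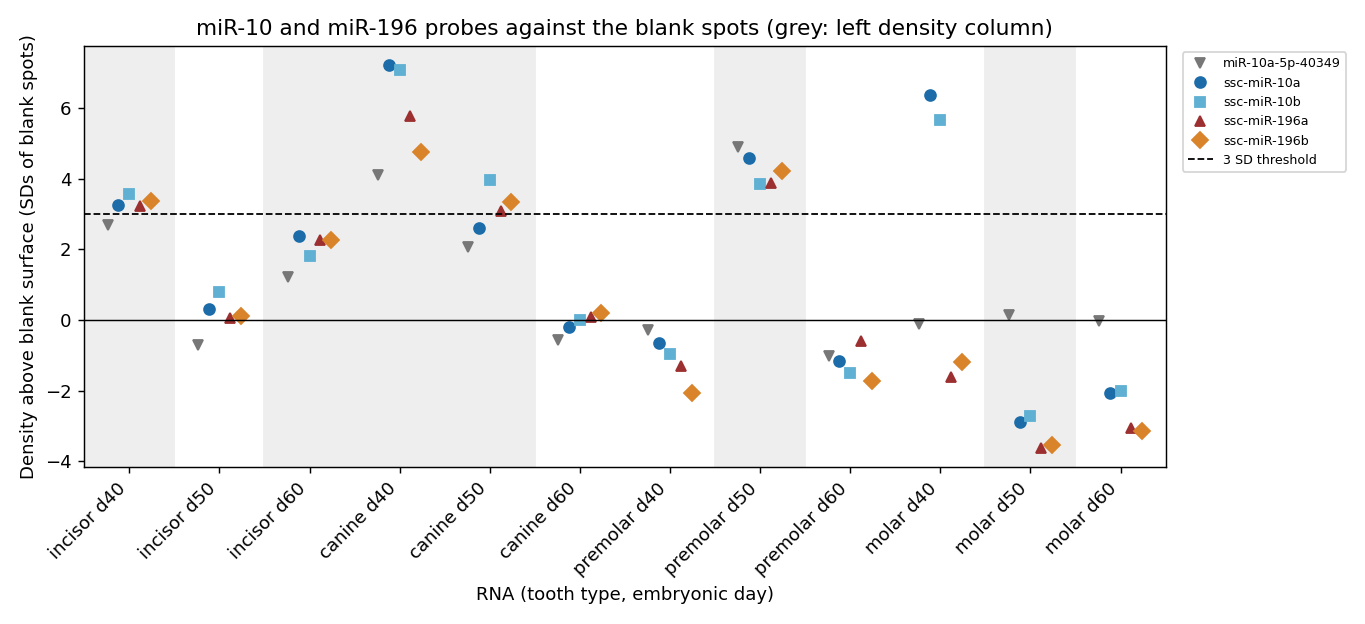
Density above the blank surface, in SDs of the blank spots, for each of the 5 probes in each of the 12 RNAs. Points over the dashed line at 3 SD count as above background, and grey bands mark RNAs read in the left density column. The day-40 canine is highest for the 4 mature probes, at 4.74 to 7.21 SD, and the day-50 premolar for the longer miR-10a probe, at 4.89 SD. Bright spots enter the day-40 canine values of ssc-miR-10a and ssc-miR-10b, which stood at 4.29 and 3.97 SD without them. ssc-miR-10a was then highest in the day-50 premolar. The day-50 and day-60 molars hold the lowest values of the mature probes, down to -3.62 SD.

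In the day-40 canine, ssc-miR-10a read 52.8 density units over the surface (7.21 SD), ssc-miR-10b 51.9 (7.08 SD), ssc-miR-196a 42.3 (5.77 SD) and ssc-miR-196b 34.7 (4.74 SD). With all spots kept, this was the RNA in which each of the 4 mature probes stood farthest above the blanks. Without the bright spots described below, ssc-miR-10a and ssc-miR-10b stood at 4.29 and 3.97 SD there. ssc-miR-10a was then farthest above the blanks in the day-50 premolar, and ssc-miR-10b nearly level with its day-50 canine value of 3.95 SD. In the day-50 premolar, the values of the 4 mature probes lay between 3.85 SD (ssc-miR-10b) and 4.58 SD (ssc-miR-10a). The day-40 incisor gave values just past the threshold, from 3.23 SD (ssc-miR-196a) to 3.57 SD (ssc-miR-10b). The values just short of it were miR-10a-5p-40349 in the day-40 incisor, at 2.70 SD, and ssc-miR-10a in the day-50 canine, at 2.60 SD.

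The only member values above background in a right column, miR-10a and miR-10b in the day-40 molar, came from 1 of 4 spots each. The ssc-miR-10a spot in row 109, column 2 read 74.4 over the surface, and its other 3 spots read -2.97, -1.44 and 1.04. The ssc-miR-10b spot beside it, in row 110, read 71.8, and the other 3 read -6.75, -1.47 and -0.66. The 6 blank spots in column 1 of rows 109 to 114 were bright as well, at 48.4 to 170 over the surface in the day-40 molar, on an array where blanks had a median density of 49.8 in that channel. In the day-40 canine, which shares the array, these blanks read 50.2 to 146 over the surface, and the same probe spots read 117 and 120. Without spots beside runs of 3 or more bright blanks (over 5 SD in both channels), a rule made after the values were seen, neither probe was above background in the day-40 molar (-0.40 SD for ssc-miR-10a and -1.06 SD for ssc-miR-10b). The canine values then stood at 4.29 and 3.97 SD, still over the threshold. The number of RNAs above background became 3 for ssc-miR-10a and 4 for ssc-miR-10b.

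In the day-50 and day-60 molars, which share an array, the 4 mature probes read below the blank surface. ssc-miR-196a stood at -64.7 density units (-3.62 SD) on day 50 and -27.8 (-3.05 SD) on day 60. ssc-miR-196b stood at -63.0 (-3.52 SD) and -28.5 (-3.13 SD). Other probes read as far below the blanks on this array: 23 of 188 mature and 44 of 554 other probes, members included, were lower than -3 SD in the day-50 molar, and 19 and 19 in the day-60 molar. The surface is least certain in rows 41 to 88 of the array, which hold 10 of the 20 member spots but 58 of the 716 blanks.

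The comparison of tooth types asks whether these miRNAs differ along the tooth row. Levels were normalised within and between arrays and are given as log2 intensity. They include an offset of 50 units (5.64 on the log2 scale), which narrows differences between faint probes. All 12 values of each mature probe lay within a range of 0.26 to 0.47, between 6.10 and 6.59. No condition was replicated, so the 3 days of a tooth type served as its replicates, and p-values weigh a difference against scatter among single RNAs, not among animals. Of the 5 probes, 4 were above background in at least 3 RNAs and entered the test. Of 656 probes tested in limma, 6 (0.915%) passed an adjusted p of 0.05 for tooth type and 0 (0%) for posterior against anterior germs, where 139 (21.2%) had an unadjusted p below 0.05. No member passed either test.

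miR-196, which targets HOX transcripts of the posterior trunk, gave the larger differences. ssc-miR-196a read 6.25, 6.34 and 6.27 in the incisor on days 40, 50 and 60, and 6.43, 6.33 and 6.33 in the canine. It read 6.18, 6.25 and 6.23 in the premolar and 6.10, 6.11 and 6.13 in the molar. The 3 molar values were below the 3 premolar values, and the highest posterior value (6.247) lay just under the lowest anterior value (6.252). Such a separation without overlap occurred in 6 of 656 probes (0.915%). The order of the means was canine (6.37 ± 0.06, SD over 3 days), incisor (6.29 ± 0.05), premolar (6.22 ± 0.03) and molar (6.11 ± 0.01). The 3 molar values were read below the blank surface (-1.61, -3.62 and -3.05 SD). So were those of the premolar on days 40 and 60 (-1.30 and -0.59 SD). At such levels the offset narrows differences, so the small molar SD is no measure of agreement between days. The fitted difference of posterior minus anterior germs was -0.18 ± 0.04 (SE), with 95% limits of -0.27 and -0.09 and an adjusted p of 0.0903 in limma (unadjusted 0.00247). Among single pairs of tooth types, molar against canine was the nearest to the threshold, at -0.29 ± 0.06 and an adjusted p of 0.116 (limma).

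ssc-miR-196b, which differs from miR-196a in 1 base, read 6.26, 6.36 and 6.29 in the incisor on the 3 days and 6.35, 6.36 and 6.37 in the canine. It read 6.13, 6.28 and 6.13 in the premolar and 6.16, 6.13 and 6.11 in the molar. All posterior values except the day-50 premolar lay below all anterior ones. The means ran from the canine (6.36 ± 0.01) through the incisor (6.30 ± 0.05) and premolar (6.18 ± 0.09) to the molar (6.14 ± 0.02), and the premolar and molar values overlapped. Here too the molar values were read below the blank surface (-1.18, -3.52 and -3.13 SD), as were the premolar values of days 40 and 60 (-2.07 and -1.72 SD). Posterior minus anterior germs gave -0.16 ± 0.03, with limits of -0.23 and -0.08 and an adjusted p of 0.0839 in limma (unadjusted 0.00197). The adjusted p over the 4 tooth types was 0.155 for each of the 2 miR-196 probes (limma F test).

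Neither miR-196 probe was above background in any molar RNA, so the molar has only an upper bound there. Both were above background in 2 of the 3 canine RNAs and in 1 each of the 3 incisor and 3 premolar RNAs, and no fold between tooth types is given.

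miR-10, whose genes lie in the HOXB and HOXD clusters, showed smaller differences with more scatter. ssc-miR-10a read 6.26, 6.37 and 6.29 in the incisor on days 40, 50 and 60 and 6.59, 6.28 and 6.33 in the canine. It read 6.24, 6.33 and 6.17 in the premolar and 6.45, 6.19 and 6.27 in the molar. Anterior and posterior values overlapped, and the 2 highest were the day-40 canine and molar, which hold the bright spots described above. The means were 6.40 ± 0.16 in the canine, 6.31 ± 0.06 in the incisor, 6.30 ± 0.13 in the molar and 6.24 ± 0.08 in the premolar, so no neighbours in this order were farther apart than their spread. Posterior minus anterior germs gave -0.07 ± 0.05 (limits -0.20 and 0.06, adjusted p = 0.467, limma), and -0.06 ± 0.04 without the bright spots.

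ssc-miR-10b read 6.29, 6.47 and 6.23 in the incisor and 6.58, 6.41 and 6.32 in the canine. It read 6.24, 6.24 and 6.11 in the premolar and 6.39, 6.21 and 6.28 in the molar. The day-60 incisor lay below 4 of the posterior values, so the groups overlapped here too. The means were 6.44 ± 0.13 in the canine, 6.33 ± 0.13 in the incisor, 6.29 ± 0.09 in the molar and 6.20 ± 0.07 in the premolar. Posterior minus anterior germs gave -0.12 ± 0.05 (limits -0.25 and 0.01, adjusted p = 0.266, limma), and -0.10 ± 0.04 without the bright spots. Over the 4 tooth types the adjusted p was 0.705 for ssc-miR-10a and 0.453 for ssc-miR-10b (limma F test). Because the fit weighs RNAs that share an array together, its pairwise values can part from plain means: for ssc-miR-10a the canine minus incisor difference was -0.04 fitted, while the plain mean of the canine was the higher.

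**Figure D2:**
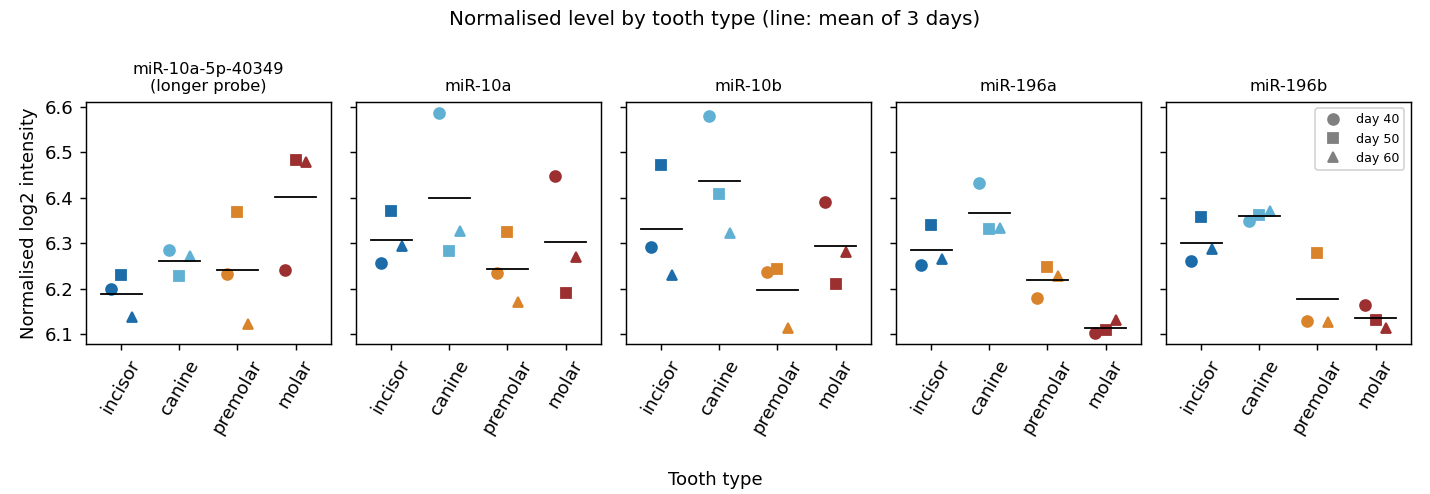
Normalised log2 intensity of each probe by tooth type, with circles for day 40, squares for day 50, triangles for day 60 and a line at the mean of the 3 days. ssc-miR-196a separates the posterior from the anterior germs without overlap, by less than the width of a point, while miR-10a, miR-10b and the longer miR-10a probe overlap.

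The longer miR-10a probe did not follow its shorter counterpart. miR-10a-5p-40349 ranged from 6.14 to 6.29 (median 6.23) in the 6 anterior RNAs and from 6.12 to 6.48 (median 6.31) in the 6 posterior RNAs. It was highest in the day-50 and day-60 molars (both 6.48), where it read 0.13 and -0.03 SD from the blank surface while ssc-miR-10a read -2.88 and -2.06 SD. Across the 12 RNAs the correlation between both probes was r = -0.03, although the custom probe contains the whole of miR-10a. By contrast r was 0.87 between ssc-miR-10a and ssc-miR-10b and 0.88 between ssc-miR-196a and ssc-miR-196b. The spots of miR-10a lie in rows adjacent to those of miR-10b, and those of miR-196a next to those of miR-196b, so these pairs share array position and labelled RNA as well as sequence. The ssc-miR-10a and ssc-miR-10b values in these correlations hold the bright spots of the day-40 canine and molar. The longer probe was above background in 2 RNAs and was not tested.

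As a list, the 4 tested members had a median posterior minus anterior difference of -0.14, and all 4 were below 0, against a median of 0.00 over all 656 probes, of which 49.4% were below 0. Of these members, ssc-miR-196a and ssc-miR-196b had an unadjusted p below 0.05 (limma), beside 21.2% of all probes. Both entered the test with 3 anterior RNAs and 1 posterior RNA above background, so mainly through the germs in which they read higher. The filter also left out the longer miR-10a probe. With no filter 4 of the 5 members were below 0, with a median of -0.12, and the longer probe was not. Among the other 240 tested probes that were above background in only 3 to 5 RNAs, a class set after the values were seen, 57.5% were lower in posterior germs, with a median of -0.01 and quartiles of -0.05 and 0.03. Of these faint probes 1.25% had a difference at or below that of ssc-miR-196a and 1.67% at or below that of ssc-miR-196b. The class was not matched for the RNAs in which its probes were above background. These shares therefore cannot say how unusual the members are.

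Arrays that carry a posterior and an anterior RNA together allow a comparison free of differences between arrays. There are 4, and each spot gives a ratio. ssc-miR-196b had posterior over anterior log2 ratios of -0.19 ± 0.15 (molar over canine, day 40, SD over 4 spots), -0.13 ± 0.08 (premolar over incisor, day 40), -0.16 ± 0.12 (premolar over incisor, day 60) and -0.09 ± 0.13 (day-50 premolar over day-60 canine). It was below 0 in 15 of 16 spots. ssc-miR-196a was below 0 on all 4 arrays, from -0.33 to -0.04, and in 13 of 16 spots. ssc-miR-10b was also below 0 on all 4, from -0.19 to -0.05, in 13 of 16 spots, and ssc-miR-10a from -0.14 to -0.00 in 11 of 16. These directions depend on the scaling: with median centring in place of loess, ssc-miR-196a was below 0 on 2 of the 4 arrays (-0.23 to 0.08), ssc-miR-10b on 2 (-0.15 to 0.08) and ssc-miR-10a on 1 (-0.01 to 0.05), while ssc-miR-196b stayed below 0 on all 4 (-0.12 to -0.02). In the authors' deposited table ssc-miR-196b and ssc-miR-10b were below 0 on all 4, and ssc-miR-196a and ssc-miR-10a on 3. The longer probe was below 0 on 2 arrays and in 5 of 16 spots. The day-50 and day-60 molars share an array with each other, so no such ratio exists for them. The posterior RNA was the Cy5 RNA on 3 of these arrays and the Cy3 RNA on the last, and spots of 1 array are not independent samples. Taking the 4 arrays as 4 pairs in limma, a test added after the values were seen and with no term for dye, the differences were -0.14 ± 0.04 for ssc-miR-196b, -0.13 ± 0.07 for ssc-miR-196a, -0.11 ± 0.04 for ssc-miR-10b and -0.07 ± 0.05 for ssc-miR-10a. None passed, with adjusted p between 0.460 and 0.686 (limma), and neither did any of the 656 probes (0%), of which 62 (9.45%) had an unadjusted p below 0.05.

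**Figure D3:**
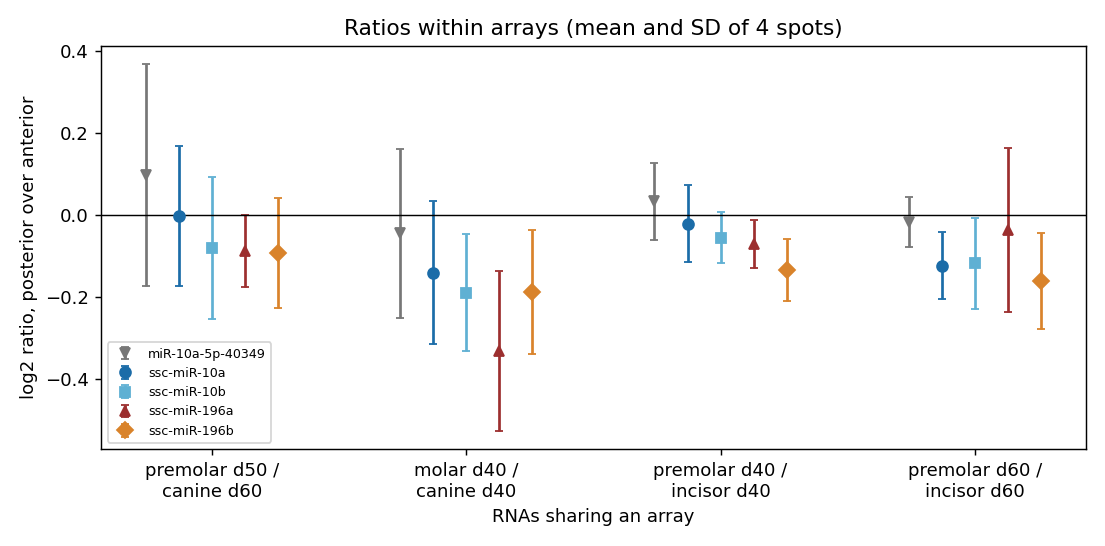
Log2 ratio of the posterior over the anterior RNA on the 4 arrays that hold both, as mean and SD of the 4 spots of each probe. Under this scaling the 4 mature probes lie at or below 0 on each array, from -0.33 to -0.00, and the longer miR-10a probe lies on both sides.

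The density columns were not balanced over the teeth, since the left columns hold 4 anterior and 2 posterior RNAs and the right columns the reverse. Within the left columns, posterior minus anterior mean levels were -0.11 for ssc-miR-196b, -0.14 for ssc-miR-196a, -0.15 for ssc-miR-10b and -0.10 for ssc-miR-10a. Within the right columns they were -0.23, -0.18, -0.14 and -0.07 in the same order. Each of the 4 mature probes was thus below 0 in both columns. The left posterior RNAs were the day-50 premolar, where no probe lay below the blank surface, and the day-50 molar, where probes did. The split therefore does not hold the offset of the left columns fixed. The premolar lay inside the left anterior range for ssc-miR-196b (6.28 against 6.26 to 6.36). So it did for ssc-miR-10a (6.33 against 6.26 to 6.59) and ssc-miR-10b (6.24 against 6.23 to 6.58). For ssc-miR-196a it lay just under that range (6.247 against 6.252). By day, posterior minus anterior means of the 4 mature probes were below 0 on each of the 3 days, from -0.07 to -0.21. Both splits reuse the same RNAs under the same scaling, and the part of the column in these differences was not tested.

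No ratio within an array was large. A ratio could count if at least 1 of its RNAs was above background, and counted if its 4 spots all differed 2-fold or more the same way. Over all probes 174 of 3413 ratios (5.1%) did, and of the members' 30 ratios 17 could count and 0 did. The offset narrows the ratios of faint probes, which could hardly meet this rule, so the 0 says little about them. The members' log2 ratios, first-named over second-named RNA, ran from -0.33 to 0.09. They ran from -0.60 to 0.21 with an offset of 16 and from -0.44 to 0.22 with median centring. In 15 of the 17, only 1 RNA was above background, so the other has a bound. The bound left a fold above 1 in 3 ratios, all of the day-40 canine over the day-40 molar. The bound stood at 1.14-fold for ssc-miR-196a and 1.07-fold for ssc-miR-196b, or 0.185 and 0.102 in log2. It takes the canine mean as exact, and both values are smaller than the spot SDs of these ratios, 0.195 and 0.151. The day-40 canine is also an RNA in which no probe lay below the blank surface. No least fold is therefore claimed. For miR-10a-5p-40349 no fold is given, since 2 of its spots were higher in the canine and 2 lower. In the authors' deposited table of processed log2 values, 5 of the 30 member ratios were at least 2-fold. The farthest from 0 in the authors' deposited table was -3.95 for ssc-miR-196b, day-40 premolar over day-40 incisor, where the ratio computed here was -0.13 ± 0.08 and the premolar was not above background.

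The comparison of days asks whether levels move between embryonic days 40, 50 and 60. For the 4 tested members, the adjusted p over the 3 days was between 0.857 and 0.997 (limma F test), and none passed, nor did any of the 656 probes (0%), of which 102 (15.5%) had an unadjusted p below 0.05. ssc-miR-10a averaged 6.38 ± 0.17 on day 40 (SD over 4 RNAs), 6.29 ± 0.08 on day 50 and 6.27 ± 0.07 on day 60. ssc-miR-10b averaged 6.38 ± 0.15, 6.33 ± 0.13 and 6.24 ± 0.09. The day-40 averages of both hold the canine and molar values with bright spots. ssc-miR-196a stayed between 6.24 and 6.26 and ssc-miR-196b between 6.22 and 6.28. All 4 day-40 RNAs lie on 2 arrays that hold no later day, and a shift common to those arrays cannot be told apart from day 40.

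Likeness to other probes was taken for ssc-miR-10b, picked by its mean log2 intensity over the 12 RNAs, which at 6.32 was all but equal to that of ssc-miR-10a at 6.31 and ranks no amounts. The 3 tested mature pig probes most like it over the 12 RNAs were ssc-miR-10a (Pearson r = 0.87), ssc-miR-153 (r = 0.78) and ssc-miR-345-3p (r = 0.67). ssc-miR-153 was above background in 3 RNAs and ssc-miR-345-3p in 6, so these are likenesses among faint readings that share arrays. The ssc-miR-10b values used hold the bright spot in the day-40 canine and molar, as do those of ssc-miR-10a. Without it ssc-miR-10b read 6.29 in that canine and 6.16 in that molar, in place of 6.58 and 6.39. Likeness was not taken again without the bright spots.

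The sequence relatives of miR-10 outside the HOX clusters, miR-99a, miR-99b and miR-100, were above background in all 12 RNAs. Their posterior minus anterior differences were 0.14 ± 0.20, 0.11 ± 0.08 and 0.31 ± 0.19, and none of the 3 passed (adjusted p between 0.373 and 0.700, limma). The let-7 family with miR-98, whose seed overlaps that of miR-196 at an offset, had 7 probes, of which 6 were above background in all 12 RNAs. Its differences were between 0.29 and 0.84, and none of the 7 passed (limma). These lists, and those of tissues below, count mature pig probes only. Among the mature pig probes there was none of miR-615, another miRNA of the HOX clusters. For the tissue itself, the epithelial miRNA list had 1 probe, above background in all 12 RNAs, and 5 of 6 mesenchymal probes were as well. The list of skeletal muscle miRNAs, a tissue next to the jaw, had 7 mature pig probes, none above background in all 12 RNAs. Its mean level ran from 6.42 to 7.17 in anterior and from 6.28 to 7.62 in posterior RNAs. Its 6 tested probes had a median posterior minus anterior difference of 0.28, from -0.11 to 1.56, and 4 of the 6 were higher in posterior germs. Of them ssc-miR-133a and ssc-miR-133b passed for tooth type (both adjusted p = 0.0156, limma), with differences of 1.45 and 1.56. The probes miR-133a-3p-1466 and miR-133b-3p-56920, outside the list, were also among the 6 that passed (both adjusted p = 0.0156, limma). Their differences were 1.48 and 1.26. Blood cell miRNAs had 2 probes (means of 6.29 to 6.53 and 6.26 to 6.49), neural miRNAs 3 probes (6.54 to 6.82 and 6.55 to 7.66, with 2 of 3 lower in posterior germs and a median difference of -0.22) and endothelial miRNAs none. The part of these tissues in the miR-10 and miR-196 values was not tested.

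The fitted miR-196 differences kept their direction under every alternative that left them to test, and that of miR-10a did not. A global blank median, a threshold of 5 SD and a blank surface of degree 2, the degree tried first, left neither miR-196 probe to test. Over 29 alternatives each, ssc-miR-196a stayed between -0.38 and -0.10 and ssc-miR-196b between -0.30 and -0.10, and none gave an adjusted p below 0.05 in limma (lowest 0.0716 and 0.0598). ssc-miR-10b stayed between -0.46 and -0.04 over 30. ssc-miR-10a ran from -0.49 to 0.01 and was above 0 in 2 of 29, with median centring and without the day-40 canine.

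**Figure D4:**
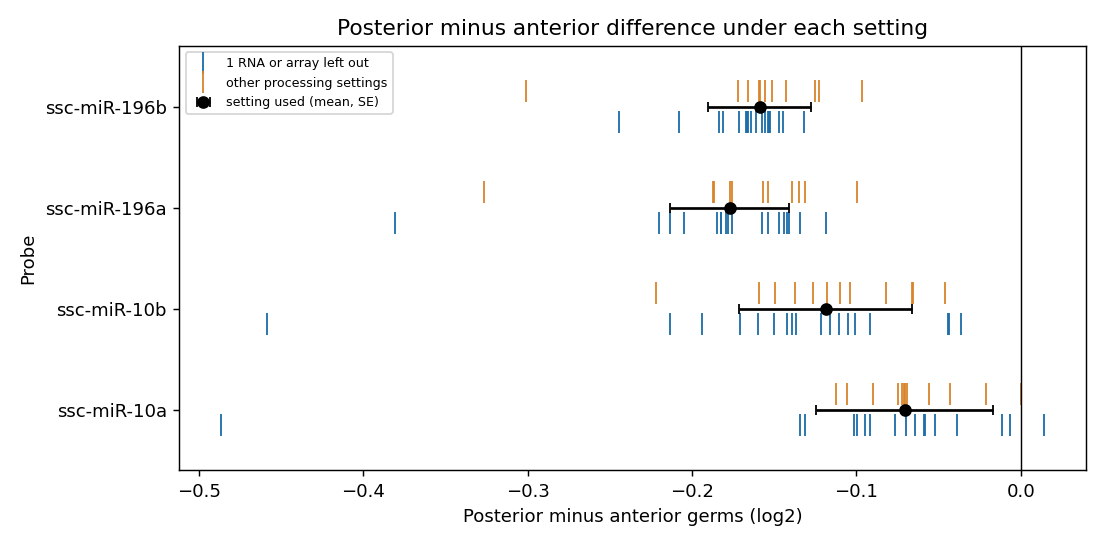
Posterior minus anterior difference (log2) of each tested probe: black points with SE for the setting used, blue ticks with 1 RNA or array left out, orange ticks for other processing settings. The ticks of ssc-miR-196a and ssc-miR-196b all lie below 0, and those of ssc-miR-10a reach from -0.49 to 0.01.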

How the data were processed

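MicroRNA arrays of 12 tooth germ RNAs were analysed, 2 per array. The deposited files give, per the file headers, the density of each of 3968 spots per array in 2 columns, a linear intensity with no background removed (blank medians of 39.2 to 273); commas in values of 1000 and above were removed. The authors' own log2 values, from a second deposited table, served as an alternative. Set against the ratios computed here, it ran first-named over second-named RNA on all 6 arrays (r = 0.69 to 0.86 over all probes, medians 0.01 to 0.16), and its scaling and centring are unknown. Scanner and image software were not given in the sources used here.

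Each column's RNA was taken from its heading and the dye from the labels. On the array of the later molars the 2 disagree about the order, and 1 array title has the incisor at another day than the rest of its labels (day 50 was used). A blank surface (robust loess, span 0.3, degree 1) was subtracted and normexp applied with an offset of 50, followed by loess within arrays (control spots at weight 0), Aquantile between arrays without control spots, and the mean of 4 spots. Degree 2 was tried first. Degree 1 and the removal of control spots were then set to match an earlier processing of these data, with both results seen. limma 3.58.1 (statmod 1.5.0, R 4.3.3) fitted tooth type, day and dye with array as random block to 656 probes above background in at least 3 RNAs, with Benjamini-Hochberg adjustment. The correlation within arrays was 0.83, with 5 residual degrees of freedom (prior 1.26). The script was tested on simulated data. Probes above background ranged from 266 to 732 per RNA, and having only 6 arrays limits the precision. The pairwise contrasts and a 2-fold rule for ratios within arrays were two-sided.

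The members, lists of relatives and marker lists were chosen with earlier results of these data known. Values are given for each mature pig member in every RNA, the longer probe by its range, and the 3 probes most alike to the member with the highest mean are named. Alternatives changed the background, offset, scaling, block, dye, filter, spot summary, RNAs and arrays used.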

Additional observations from a re-analysis of the deposited data

Results flagged for a closer look

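Of 25 groups of values examined (5 probes by posterior and anterior germs and by the 3 days), 2 had a value that stood apart from the others by more than Dixon's limit at the 95% level, and chance alone gives about 1 in 20. In the anterior germs, ssc-miR-10a stood at 6.59 in the day-40 canine, with the nearest other value at 6.37. That RNA holds the bright spot in row 109, and without the bright patch its ssc-miR-10a level was 6.31. In the posterior germs, ssc-miR-196b stood at 6.28 in the day-50 premolar, with the nearest at 6.16. That premolar was the RNA with the most probes above background, 732 of 742.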

How the results depend on the processing

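Limits first: 41 of the 60 member values are not above background, no condition is replicated, and the correlation within arrays, on which the standard errors rest, moved between -0.33 and 0.97 on leaving out RNAs or arrays. The number of members above background in at least 3 RNAs (4) became 0 with a global blank median, 0 at 5 SD and 2 with a surface of degree 2, an alternative added after seeing the data. The first 2 leave no member to test, so they give no difference. The surface of degree 2 leaves ssc-miR-10a and ssc-miR-10b, so it gives no difference for miR-196. The median difference of the tested members (-0.14) became -0.26 with an offset of 16, and ran from -0.42 to -0.077 on leaving out single RNAs or arrays, the lowest without the array of the day-60 canine and day-50 premolar. ssc-miR-10a became 0.000260 with median centring, and ran from -0.49 to 0.014 on leaving out RNAs or arrays, the highest without the day-40 canine. The count of direct ratios past 2-fold (0) became 4 with the authors' deposited values, among ratios with an RNA above background; these hold 1 value per probe, so the rule on 4 spots was dropped along with the change of values. The cause of these shifts was not tested. No alternative called a member for tooth type, posterior against anterior or day. The alternatives numbered 31 for tooth type and day and 32 for posterior against anterior. They include the global blank median and 5 SD, under which no member was tested and none could be called. Under the surface of degree 2 no miR-196 probe could be called. Over all probes the calls ran from 0 to 110 for tooth type, 0 to 122 for posterior against anterior and 0 to 22 for day; the highest first 2 counts came without the day-40 molar, and the third without the array block. Without the bright patches, added after seeing the data, 17 in place of 19 member values were above background and the median difference was -0.13. The labels give no replicate numbers to block on. The arrays pair RNAs: with the 4 posterior and anterior pairs alone, added after seeing the data, the median difference was -0.12 and no member passed. Of the members' ratios within arrays, 280 of 330 values under alternatives moved by less than the spread of their spots. That count is no measure of stability, since some alternatives cannot change such a ratio. No scaling between arrays and detection at 5 SD leave every ratio as it was. Exchanging the later molars or leaving out the bright patches changes ratios of 1 array only. With median centring 7 of the 16 posterior over anterior ratios of the mature probes were above 0, against 0 in the setting used.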
